A study of Mus musculus with 36 samples.

Results

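The 33 genes described here encode the cellular response to low oxygen and the enzymes of glycolysis, out of 23059 genes with a symbol in the RNA count table. They were chosen by name, and each was represented by the RefSeq transcript with the highest mean count over the 12 RNA libraries. All 33 were found and all passed the filter on low counts in every comparison. By role, 4 sense oxygen, 2 carry glucose into the cell, 12 are glycolytic enzymes, 5 handle pyruvate, lactate and acid, and 10 are other genes that hypoxia-inducible factors (HIFs) switch on.

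The samples were microdissected articular cartilage of the tibia and femur of male C57BL/6J mice, taken 4 or 12 weeks after surgery at 12 weeks of age that destabilized the medial meniscus (DMM) and leads to osteoarthritis. DMM samples came from the operated right knees. Control samples came from the left knees of the same mice, which had no surgery, so no sham-operated group was compared. Each of the 4 groups (control and DMM at both times) had 3 RNA libraries and 3 oxidative bisulfite (oxBS) libraries, each pooled from 3 knees, with separate mice for RNA and for DNA. All mice had surgery at the same age, so age and time after surgery cannot be told apart. Animals and libraries of the 2 times were different, so any batch of libraries cannot be told apart from time either.

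HIFs are pairs of an oxygen-regulated alpha subunit, such as HIF-1 alpha or HIF-2 alpha, and a stable partner. When oxygen is plentiful, prolyl hydroxylases mark the alpha subunit for destruction, and when it is scarce the pair binds short DNA elements and turns on genes for glucose uptake, glycolysis, acid export, vessel growth and collagen hydroxylation. Cartilage has no blood vessels, its cells live at low oxygen and draw most of their energy from glycolysis, and HIF-1 alpha is required for the survival of chondrocytes in the growth plate. Most control of HIF-1 alpha acts on its protein, which these data do not measure.

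The core of the HIF-binding element is read as ACGTG or GCGTG, and each core holds a CpG whose methylation the oxBS libraries can measure. Both strands of the 250 bases before the start were searched in RefSeq promoters of GRCm38.p6, which matched 30 of the 33 members at the start of the counted transcript (not Epas1, Slc2a3 or Ndrg1). A core was found in 24 of the 30 (80%) and in 38.6% of all 32851 promoters in the same table, and ACGTG alone in 16 members (53.3%) and in 16.6% of all promoters. CACGTG reads as a core on both strands and was counted once. Member promoters were also richer in CpG, with a median of 18 CpGs in these 250 bases against 6 in all promoters, and both cores contain a CpG. No core was found in the promoters of Gpi1, Tpi1, Pkm, Car12, Vegfa and Mxi1. The 150 bases before the start are shown for 6 members, all picked from those with a core, as examples. They are written 5′ to 3′ on the gene's strand with the cores in capitals.
Slc2a1 (plus strand, chr4:119108595-119108744): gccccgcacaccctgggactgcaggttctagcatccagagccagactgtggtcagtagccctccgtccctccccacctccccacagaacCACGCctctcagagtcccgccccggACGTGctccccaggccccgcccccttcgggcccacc
Ldha (plus strand, chr7:46845654-46845803): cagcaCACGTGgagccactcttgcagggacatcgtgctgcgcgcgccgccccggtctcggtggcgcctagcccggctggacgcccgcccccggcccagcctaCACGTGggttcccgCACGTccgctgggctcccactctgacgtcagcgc
Slc16a3 (plus strand, chr11:120948917-120949066): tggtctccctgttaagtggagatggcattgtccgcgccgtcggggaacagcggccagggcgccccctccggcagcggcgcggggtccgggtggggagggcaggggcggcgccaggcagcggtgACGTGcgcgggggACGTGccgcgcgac
Car9 (plus strand, chr4:43506876-43507025): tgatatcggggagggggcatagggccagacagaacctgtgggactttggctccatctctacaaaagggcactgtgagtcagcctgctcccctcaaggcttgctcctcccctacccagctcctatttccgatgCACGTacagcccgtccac
Bnip3 (minus strand, chr7:138909507-138909656): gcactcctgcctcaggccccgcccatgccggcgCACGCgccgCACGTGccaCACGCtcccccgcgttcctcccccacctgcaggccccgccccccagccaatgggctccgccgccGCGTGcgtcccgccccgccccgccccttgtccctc
Adm (plus strand, chr7:110627507-110627656): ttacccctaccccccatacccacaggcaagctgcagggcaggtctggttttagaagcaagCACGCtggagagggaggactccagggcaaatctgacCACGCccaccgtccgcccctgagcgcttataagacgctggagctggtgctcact
Ldha holds 3 cores in this stretch, 2 of them the palindrome CACGTG, and Bnip3 holds 4. Slc16a3 holds 2 copies of ACGTG close to its start, Slc2a1 and Adm hold 2 cores each, and Car9 holds 1 next to its start. A match of letters is a description and not a measured binding site.

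Methylation was low in both limbs at the cores that the oxBS reads covered, a minority of the 52 cores found. Cytosines of 16 cores in 9 member promoters had 10 or more reads in every oxBS library of the 4-week set, and 17 cores in 10 promoters at 12 weeks. No core in the promoters of Car9, Bnip3 and Adm was covered. The highest 5-methylcytosine (5mC) level at any covered core in any library was 7.14% at 4 weeks, at an Egln1 core, and 4.88% at 12 weeks, at a P4ha2 core. The ACGTG of Slc2a1 had no methylated read in any library at either time, over 266 reads at 4 weeks and 176 at 12 weeks. At 12 weeks the 3 cores of Ldha were at 0 in all 6 libraries except for 1.25% in control replicate 1 at the distal CACGTG. The Slc16a3 core 26 bases before the start was at 0, 0 and 0% in control and 0.84, 4 and 1.72% in DMM at 12 weeks. It had 345 reads summed over all 6 libraries, so these percentages rest on very few methylated reads. Of the 17 cores covered at 12 weeks it was the only one with every DMM library above every control. The share of all covered cytosines that did so is not given here. At 4 weeks that core was at 0, 1.55 and 0% in control and 0.73, 0 and 0% in DMM. The Slc16a3 core 13 bases before the start was at 0 in all 6 libraries at 12 weeks.

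Library totals ran from 27706547 to 62737656 counts, and levels are given as CPM, read counts scaled to each library's TMM-adjusted total. The cartilage markers were present in every library, with Col2a1 between 353 and 1575 CPM and Acan between 193 and 848 CPM. Markers of neighbouring tissues were present too, and none of the 101 marker genes in the table was at 0 in all 12 libraries. The 20 skeletal muscle genes summed to 7608 to 28449 CPM in the control and 748 to 4560 CPM in the DMM libraries at 4 weeks, and to 122 to 18643 and 788 to 14851 CPM at 12 weeks. The 20 chondrocyte genes summed to 17924 to 42139 and 15142 to 22597 CPM at 4 weeks, and to 11548 to 33286 and 23427 to 36939 CPM at 12 weeks. The 11 neutrophil and bone marrow genes summed to 9582 to 27906 and 14075 to 21155 CPM at 4 weeks and to 26150 to 43800 and 20881 to 34192 CPM at 12 weeks. At 4 weeks the 10 osteoblast and osteocyte genes summed to 10769 to 11835 CPM in control and 16808 to 17894 CPM in DMM. The 8 fibroblast and synovial genes summed to 2817 to 4454 and 4842 to 7777 CPM. Both were higher in DMM without overlap then. At 12 weeks these sums were 9900 to 15438 and 15624 to 18290 CPM, and 3780 to 7406 and 5341 to 7763 CPM. The erythroid, osteoclast, adipocyte and endothelial sums overlapped between limbs at both times. In bulk tissue, fewer cells of a type and less RNA per cell cannot be told apart.

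**Figure D1:**
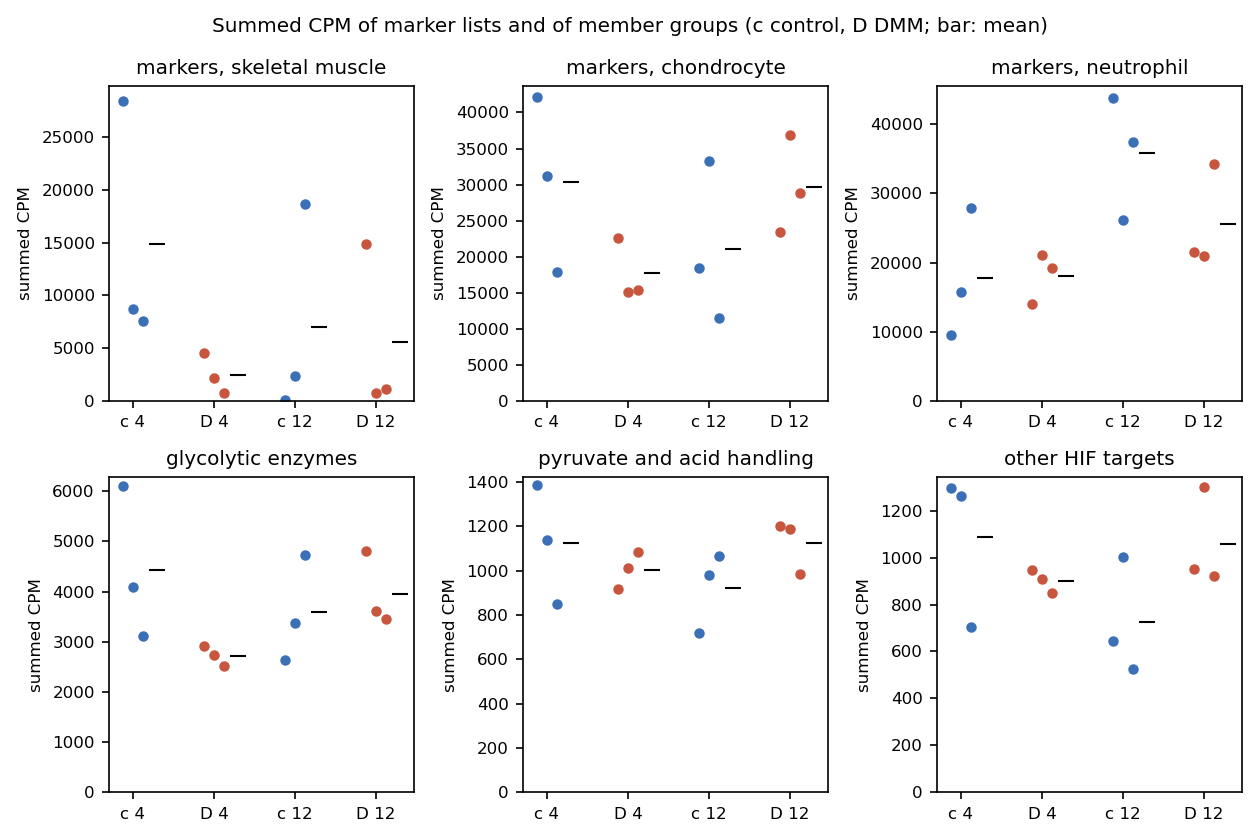
Summed CPM of 3 marker lists (top) and of 3 groups of member genes (bottom) in each RNA library, as points for control (c, blue) and DMM (D, red) at 4 and 12 weeks, with a bar at the group mean. At 4 weeks the muscle sums of all 3 DMM libraries lay below all 3 control libraries, and the summed glycolytic enzymes did the same.

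Several glycolytic genes have processed copies elsewhere in the genome, and short reads from them cannot be placed. Of the 50-base windows of each transcript, the length of the reads, 92.9% for Pgk1, 91.8% for Pgam1, 85.7% for Gapdh, 82.5% for Eno1, 61.7% for Bnip3, 44.4% for Pkm, 33% for Ldha, 25.9% for Tpi1, 24.6% for Gpi1 and 14.4% for Aldoa also occurred at another place in GRCm38.p6. For the other 23 members the share was at most 3.5%. The levels of these 10 genes are therefore uncertain, and Gapdh, an abundant enzyme in most cells, was counted at a mean of only 37.7 CPM (26.5 CPM per kb of exon) beside 1380 CPM (869 per kb) for Aldoa. A comparison of 1 gene between libraries rests on the same windows in each library. Exons of 4 members also overlap a gene on the other strand, over 7.4% of the exon bases of Car9 (with Arhgef39), 7.1% of Pfkp (with Pitrm1), 5.6% of Ankrd37 (with Ufsp2) and 2.1% of Tpi1 (with Spsb2). Without strand information, reads from these stretches cannot be told apart.

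The main question was whether these genes differed between DMM and control cartilage early and late after surgery. At 4 weeks, 30 of the 33 members had lower levels in DMM cartilage than in control and 3 had higher (Hif1a, Pfkp and P4ha1), with a median log2 fold change of -0.51 against -0.03 over all 21140 transcripts tested. No member passed an adjusted p of 0.05 (edgeR's quasi-likelihood test, Benjamini-Hochberg adjustment), and 16 transcripts did in all (0.0757%). At an unadjusted p under 0.05, 10 members were lower and none higher, where 7.57% of all transcripts were lower. DESeq2 called 3 members, all lower (Car9, Hk2 and Aldoa), where it called 1.78% of 25642 transcripts lower. In 9 members every DMM library lay below every control library (10.1% of all transcripts did), and in Hif1a every DMM library lay above (11.2% of all). Without control replicate 3, 2 members were called, Car9 and Ddit4, both lower, where 0.553% of all transcripts were called. With the mean log2 CPM of the skeletal muscle genes (the muscle score) in the fit, 17 of the 33 members were higher in DMM and the median was 0.05. Of the 10 members with an unadjusted p under 0.05, Slc2a1, Hk1 and Pfkl changed sign in that fit. At 4 weeks the muscle score was 7.76 to 9.76 in control and 4.59 to 6.82 in DMM libraries, without overlap. The fit with the score therefore cannot separate limb from score at 4 weeks, also where it is given for single members below. The part of the muscle markers, which were lower in all 3 DMM libraries, and of the chondrocyte markers was not tested. Nor was that of the osteoblast and fibroblast markers, whose sums were higher in all 3 DMM libraries than in any control.

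At 12 weeks the direction was the opposite, with 28 of the 33 members higher in DMM and a median log2 fold change of 0.33 against 0.01 over all 21010 transcripts. No member passed the adjusted threshold, and 1 transcript did in all (0.00476%). With the replicate number as a block, 7 members passed, 6 higher and 1 lower (3.49% of all transcripts). The labels do not say whether a replicate number marks the same mice in both limbs. At an unadjusted p under 0.05, 5 members were higher, where 8.94% of all transcripts were, and 1 was lower, where 7.39% were. DESeq2 called 1 member, Adm, which was higher, as were 2.18% of 25302 transcripts by the same rule. Every DMM library lay above every control library in 6 members (Pfkp, Pgk1, Pkm, Ndrg1, Ankrd37 and Adm, with 10.2% of all transcripts above) and below in Kdm3a (8.73% below). Without control replicate 2, whose chondrocyte sum of 33286 CPM was the highest of the 12-week controls, 8 members were called, all higher, where 1.94% of 21261 transcripts were called higher. Without control replicate 3 and DMM replicate 1, the libraries with the highest muscle sums, 27 members were higher and none was called.

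The difference between limbs was then compared between the times as an interaction, the log2 fold change at 12 weeks minus that at 4 weeks. It was positive in 30 of the 33 members, with a median of 0.67 against 0.03 over all 21618 transcripts. At an unadjusted p under 0.05, 14 members were positive and none negative, where 7.8% of all transcripts were positive. No member and no transcript (0%) passed the adjusted threshold in edgeR, and 2656 transcripts were under 0.05 unadjusted. DESeq2 called 16 transcripts (0.0613%) and no member. In the same interaction all 20 muscle markers were positive, with a median of 2.34 and 3 at an unadjusted p under 0.05, and 19 of the 20 chondrocyte markers were positive, with a median of 1.12 and 8 under 0.05. None of these markers passed the adjusted threshold, and their part in the members' interaction was not tested. The 6 members with the smallest unadjusted p were Car9, Vegfa, Adm, Slc16a3, Pfkl and Slc2a1, each with an adjusted p of 0.405.

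**Figure D2:**
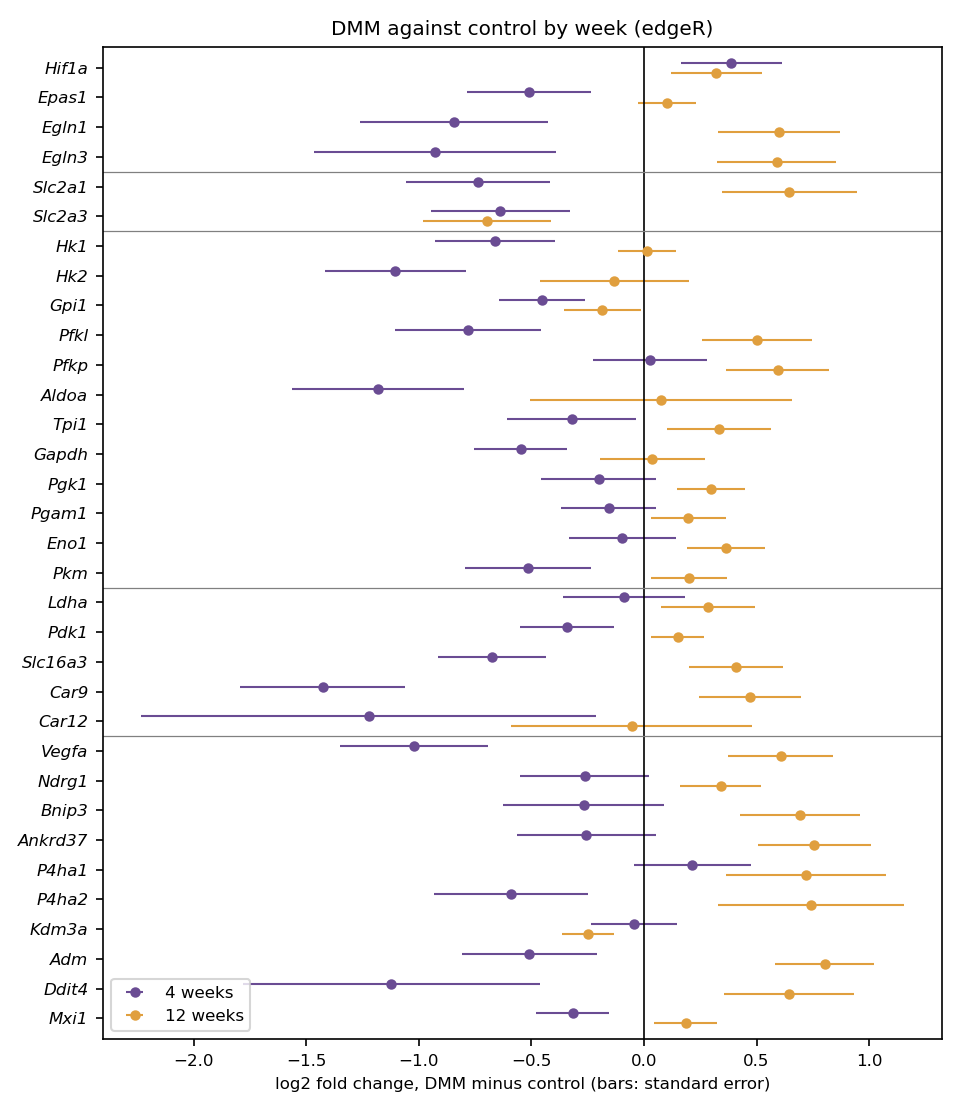
Log2 fold change of DMM against control for each of the 33 members at 4 weeks (purple) and 12 weeks (orange), with bars of 1 standard error from edgeR and lines between the role groups. At 4 weeks 30 points lay below 0 and at 12 weeks 28 lay above it.

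**Figure D3:**
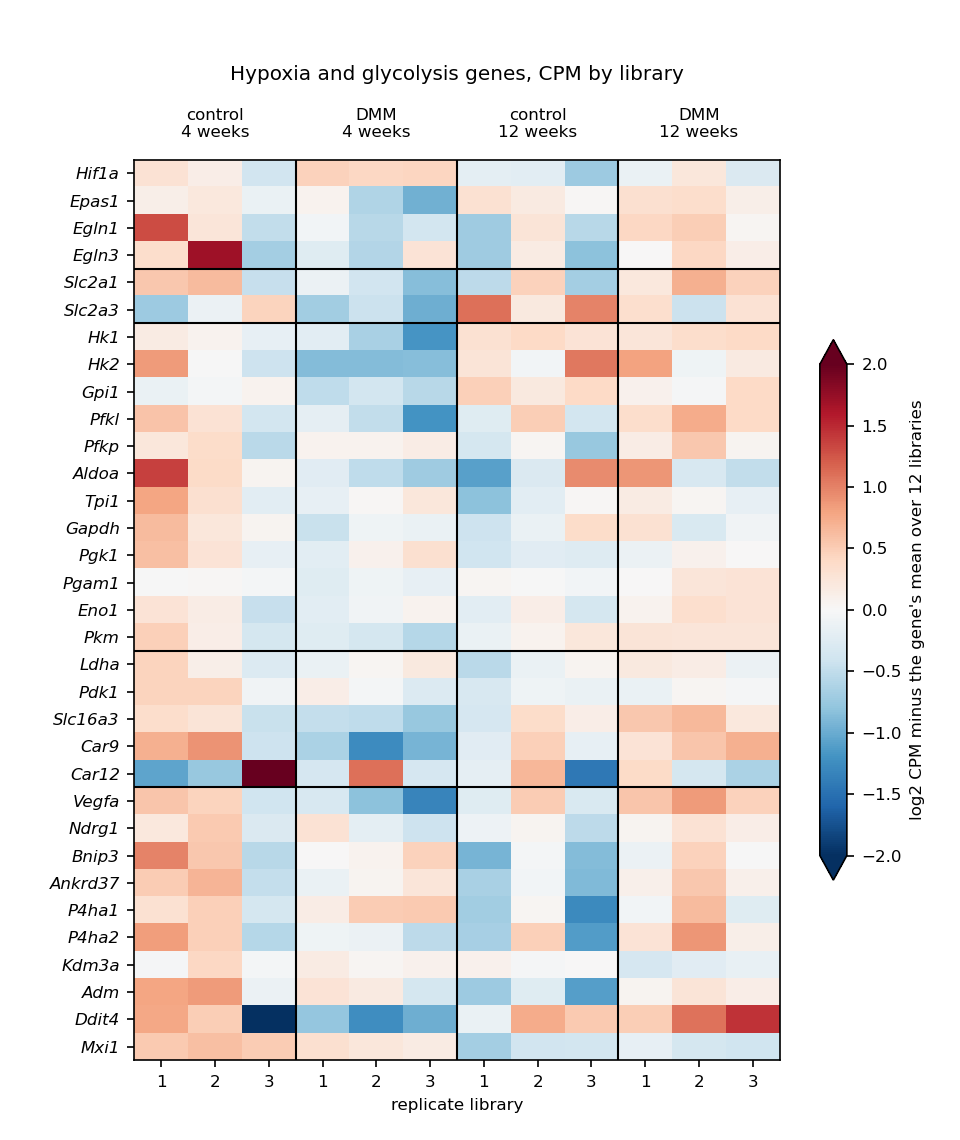
Log2 CPM of each member (rows, by role) in each of the 12 RNA libraries (columns) minus the gene's mean, from blue (lower) to red (higher), with colours saturated at 2 in either direction. Car12 and Ddit4 in control replicate 3 at 4 weeks lay past the ends of the scale.

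Among the oxygen sensors, Hif1a was higher in DMM at 4 weeks while most members were lower. Hif1a encodes HIF-1 alpha and lies at chr12:73907867-73947530 on the plus strand of GRCm38. It stood at 236, 212 and 148 CPM in the 4-week controls and at 265, 258 and 259.7 CPM in the DMM libraries, so all 3 DMM libraries were above all 3 controls. Its log2 fold change was 0.39 ± 0.22 (SE), with an adjusted p of 0.429. Its levels at 12 weeks were 168, 167 and 117 CPM in control and 176, 226 and 158 CPM in DMM, where the groups overlapped, and the log2 fold change was 0.32 ± 0.20. Its interaction was close to 0 (-0.07 ± 0.31). Epas1, which encodes HIF-2 alpha, had fold changes of -0.51 ± 0.28 and 0.10 ± 0.13 on the log2 scale at the respective times. The prolyl hydroxylases Egln1 and Egln3, themselves HIF targets, had -0.84 ± 0.42 and -0.93 ± 0.54 at 4 weeks and 0.60 ± 0.27 and 0.59 ± 0.26 at 12 weeks. None of these 4 genes passed the test at either time, and Egln3 in control replicate 2 at 4 weeks, at 131 CPM, was far above the 51.5 and 25.4 CPM of the other controls. Without that library the 4-week log2 fold change of Egln3 was -0.07, and without control replicate 1 that of Egln1 was -0.24.

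The fold changes of the glucose transporters had opposite signs at 12 weeks. Slc2a1 encodes GLUT1, the basal transporter of most cells, at chr4:119108745-119137330 on the plus strand. Its level was 129, 138 and 64.5 CPM in the 4-week controls, 81.7, 68 and 49.2 CPM in DMM at 4 weeks, 61.8, 122 and 55.1 CPM in the 12-week controls and 103, 146 and 122 CPM in DMM at 12 weeks. The groups overlapped at both times, because control replicate 3 at 4 weeks was as low as the DMM libraries and control replicate 2 at 12 weeks as high as DMM replicate 3. The log2 fold change was -0.74 ± 0.32 at 4 weeks and 0.65 ± 0.30 at 12 weeks, and the interaction was 1.38 ± 0.49. Slc2a3 encodes GLUT3, a high-affinity transporter that leukocytes also carry. It stood at 54, 82 and 122 CPM in control and 55, 66.6 and 45.5 CPM in DMM at 4 weeks, and at 192, 102 and 177 CPM in control and 113, 66.2 and 109 CPM in DMM at 12 weeks. It was lower in DMM at both times (-0.64 ± 0.31 and -0.70 ± 0.28, adjusted p = 0.385 and 0.291), without passing the test. The 12-week controls with the most Slc2a3, replicates 1 and 3, also had the highest neutrophil and bone marrow sums (43800 and 37428 CPM), whose part was not tested.

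The 12 glycolytic enzymes summed to 6092, 4087 and 3121 CPM in the 4-week controls and to 2925, 2727 and 2508 CPM in DMM, and Aldoa made up the largest part of these sums. At 4 weeks 11 of the 12 were lower in DMM and 6 of them had an unadjusted p under 0.05 (Hk1, Hk2, Gpi1, Pfkl, Aldoa and Gapdh). By that threshold 7.57% of all transcripts were lower. At 12 weeks 10 of the 12 were higher and 1, Pfkp, had an unadjusted p under 0.05, where 8.94% of all transcripts were higher. The interaction was positive in all 12.

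Hexokinase 2, made by Hk2, traps glucose in muscle and in hypoxic cells. It was at 10.9, 10.9 and 11.1 CPM in the DMM libraries at 4 weeks, below the 35.9, 19.9 and 15 CPM of the controls. The DMM libraries were almost equal to one another, while control replicate 1 stood well above the other controls. Hk2 had a log2 fold change of -1.10 ± 0.31 with an adjusted p of 0.263, a value of -0.68 without control replicate 1 and of -0.28 ± 0.49 with the muscle score in the fit. Its 12-week levels were 23.9, 19.1 and 41.3 CPM in control and 34.7, 18.8 and 22.6 CPM in DMM, and the highest library of each group was the one with the highest muscle sum. Hk1, the hexokinase of most tissues, was at 168, 158 and 134 CPM in control and 129, 96.3 and 66.3 CPM in DMM at 4 weeks, without overlap. Its groups at 12 weeks were close, at 187, 199 and 182 CPM in control and 179, 193 and 198 CPM in DMM, and the log2 fold change was 0.01 ± 0.13 after -0.66 ± 0.27 at 4 weeks. Glucose-6-phosphate isomerase, Gpi1, was at 284, 304 and 328 CPM in control and 219, 241 and 213 CPM in DMM at 4 weeks. It was lower in every DMM library, with a log2 fold change of -0.45 ± 0.19, and its 12-week levels of 432, 355 and 409.6 CPM in control and 329, 307 and 410.0 CPM in DMM overlapped.

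Phosphofructokinase commits sugar to glycolysis, and the genes of its liver and platelet subunits had different fold changes at 4 weeks, a difference that was not tested. The liver subunit gene Pfkl was at 193, 159 and 101 CPM in control and 114, 92.9 and 56.9 CPM in DMM at 4 weeks, and at 109, 184 and 101 CPM in control and 166, 217 and 171 CPM in DMM at 12 weeks. Its log2 fold changes were -0.78 ± 0.32 and 0.50 ± 0.24, with an interaction of 1.28 ± 0.44. The platelet subunit gene Pfkp was at 177, 194 and 104 CPM in control and 159, 158 and 168 CPM in DMM at 4 weeks, a log2 fold change of 0.03 ± 0.25. At 12 weeks it was at 119, 155 and 89.1 CPM in control and 167, 219 and 157 CPM in DMM, where every DMM library was above every control (0.59 ± 0.23, adjusted p = 0.278).

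Aldoa encodes aldolase A, the aldolase of muscle and most other tissues, and had the highest level per kb of exon among the members. It stood at 3113, 1585 and 1260.0 CPM in the 4-week controls and at 1039, 854 and 737 CPM in DMM, and every DMM library was below every control. Its log2 fold change was -1.18 ± 0.38 with an adjusted p of 0.3, -0.71 without control replicate 1 and -0.002 ± 0.44 with the muscle score in the fit. At 12 weeks it stood at 569, 991 and 2339.8 CPM in control and 2238, 967 and 861 CPM in DMM. The highest libraries, control replicate 1 at 4 weeks and control replicate 3 and DMM replicate 1 at 12 weeks, were the 3 with the highest muscle sums (28449, 18643 and 14851 CPM). At 12 weeks the log2 fold change of Aldoa was 0.08 ± 0.58, and -0.07 ± 0.25 with the muscle score.

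Gapdh encodes the dehydrogenase that is often used as a reference gene and lies at chr6:125161852-125165773 on the minus strand. It was counted at 57.2, 43.3 and 38.3 CPM in control and 26.9, 34.8 and 33.7 CPM in DMM at 4 weeks, so each DMM library was below each control. Gapdh had a log2 fold change of -0.55 ± 0.20 with an adjusted p of 0.336. At 12 weeks it was at 27.5, 33.5 and 47.5 CPM in control and 45.3, 29.8 and 35.2 CPM in DMM, with a log2 fold change of 0.04 ± 0.23. Pgk1, phosphoglycerate kinase, was at 14.2, 11.3 and 8.34 CPM in control and 8.01, 9.89 and 11.6 CPM in DMM at 4 weeks and at 7.05, 7.98 and 7.76 CPM in control and 8.60, 9.88 and 9.35 CPM in DMM at 12 weeks. Its DMM libraries at 12 weeks were all above the controls (0.30 ± 0.15, adjusted p = 0.352). Pkm, pyruvate kinase, was at 1178, 929 and 665 CPM in control and 714, 661 and 568 CPM in DMM at 4 weeks and at 768, 892 and 989.6 CPM in control and 1016, 1003 and 999.6 CPM in DMM at 12 weeks. The 12-week DMM libraries of Pkm differed by little from one another and lay just above the highest control. Triose phosphate isomerase (Tpi1), phosphoglycerate mutase (Pgam1) and enolase (Eno1) had log2 fold changes of -0.32, -0.16 and -0.10 at 4 weeks and of 0.33, 0.20 and 0.36 at 12 weeks, and no group difference passed the test.

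Of the genes that handle pyruvate and acid, Ldha had the smallest fold change at 4 weeks and Car9 the largest. Ldha encodes the lactate dehydrogenase subunit that turns pyruvate into lactate and lies at chr7:46845804-46855627 on the plus strand. It was at 1159.9, 918 and 702 CPM in control and 776, 877 and 969 CPM in DMM at 4 weeks, and at 583, 772 and 886 CPM in control and 976, 943 and 786 CPM in DMM at 12 weeks. The log2 fold change was -0.09 ± 0.27 at 4 weeks and 0.28 ± 0.21 at 12 weeks, and the groups overlapped at both times. Slc16a3 encodes MCT4, which exports lactate. It was at 148, 138 and 85.3 CPM in control and 83.7, 81.4 and 68.5 CPM in DMM at 4 weeks, where DMM replicate 1 lay just below the lowest control. At 12 weeks it was at 92, 149.9 and 127 CPM in control and 169, 183 and 135 CPM in DMM, and the groups overlapped. Its log2 fold changes were -0.67 ± 0.24 and 0.41 ± 0.21, and the interaction was 1.08 ± 0.34. With the muscle score in the fit, the 4-week value of Slc16a3 was -0.14 ± 0.37.

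Car9 encodes carbonic anhydrase 9, a surface enzyme that buffers acid and is widely used as a marker of hypoxic cells. It was at 12.2, 13.7 and 5.58 CPM in the 4-week controls and at 4.75, 3.10 and 3.90 CPM in DMM, a mean of 10.5 ± 4.33 against 3.91 ± 0.821 CPM (SD). All 3 DMM libraries were below the lowest control, control replicate 3. Car9 had a log2 fold change of -1.43 ± 0.37, the lowest of the 33, with an adjusted p of 0.252, and of -0.96 ± 0.64 with the muscle score in the fit. At 12 weeks Car9 was at 6.31, 10.3 and 6.63 CPM in control and 8.91, 10.9 and 12.1 CPM in DMM, with a log2 fold change of 0.47 ± 0.23. Its interaction of 1.90 ± 0.46 was the highest of the 33. Pdk1, a kinase that inhibits pyruvate dehydrogenase, was at 67, 67.1 and 46.9 CPM in control and 54.3, 47.8 and 41 CPM in DMM at 4 weeks and at 39.7, 46.4 and 45.2 CPM in control and 45, 50.7 and 48.7 CPM in DMM at 12 weeks, with overlap at both times. Car12, another surface carbonic anhydrase, was below 2.5 CPM in 11 of the 12 libraries and at 8.17 CPM in control replicate 3 at 4 weeks.

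Vegfa encodes the main growth factor of blood vessels and lies at chr17:46016993-46032377 on the minus strand. It was at 99.5, 92.2 and 51.3 CPM in the 4-week controls and at 54.4, 38.4 and 27.1 CPM in DMM, a mean of 81 ± 26 against 40.0 ± 13.7 CPM (SD). DMM replicate 1 overlapped the lowest control. Vegfa had a log2 fold change of -1.02 ± 0.33 with an adjusted p of 0.3, and of -0.03 ± 0.41 with the muscle score in the fit. Vegfa at 12 weeks was at 57.2, 96.4 and 54.5 CPM in control and 99, 122 and 93.3 CPM in DMM, where control replicate 2 lay above DMM replicate 3 and below the other DMM libraries. The log2 fold change at 12 weeks was 0.61 ± 0.23 with an adjusted p of 0.278, and the interaction was 1.63 ± 0.44.

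Adm encodes adrenomedullin, a vasodilator peptide, and had the smallest p of the members at 12 weeks. It was at 9.76, 13.6 and 7.49 CPM in control and 16.7, 19.2 and 17.7 CPM in DMM at 12 weeks, and all 3 DMM libraries were above all 3 controls. Its log2 fold change was 0.80 ± 0.22 with an adjusted p of 0.217 in edgeR. At 4 weeks Adm was at 27.7, 29.1 and 14.8 CPM in control and 19.5, 18.3 and 12.7 CPM in DMM, a log2 fold change of -0.51 ± 0.30. Ankrd37, a small ankyrin repeat protein and sensitive HIF target, was at 14.1, 15.9 and 7.14 CPM in control and 9.10, 10.3 and 11.8 CPM in DMM at 4 weeks. The groups overlapped then. Ankrd37 at 12 weeks was at 6.33, 9.61 and 5.39 CPM in control and 10.7, 14.6 and 10.7 CPM in DMM, without overlap (0.76 ± 0.25, adjusted p = 0.254). Bnip3, which marks mitochondria for removal, was at 183, 133 and 62.1 CPM in control and 92.1, 96.6 and 126 CPM in DMM at 4 weeks, and at 47.9, 89.3 and 50.4 CPM in control and 84.1, 126 and 91.2 CPM in DMM at 12 weeks. Its log2 fold changes were -0.27 ± 0.36 and 0.69 ± 0.27.

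The collagen prolyl hydroxylases P4ha1 and P4ha2, which collagen needs to fold, had log2 fold changes of 0.21 and -0.59 at 4 weeks and of 0.72 ± 0.35 and 0.74 ± 0.41 at 12 weeks. Ndrg1, a stress-induced gene, had -0.26 ± 0.29 and 0.34 ± 0.18. Kdm3a, a histone demethylase, was the 1 of the 10 other HIF targets that was lower in DMM at 12 weeks, at 30.9, 33.5 and 35.4 CPM in DMM below 41.4, 38.6 and 39.5 CPM in control (-0.25 ± 0.11, adjusted p = 0.316). Ddit4, an inhibitor of mTOR signalling, was at 12.5, 10.3 and 1.35 CPM in control and 4.27, 3.08 and 3.71 CPM in DMM at 4 weeks, where control replicate 3 lay below the DMM libraries. Ddit4 at 12 weeks was at 6.66, 12.2 and 10.5 CPM in control and 10.3, 15.5 and 19.9 CPM in DMM. Mxi1, a repressor of MYC targets, was at 72.1, 76.2 and 71.1 CPM in control and 62.8, 58.2 and 56.1 CPM in DMM at 4 weeks, without overlap but with a log2 fold change of only -0.32 ± 0.16. Mxi1 at 12 weeks was at 31.1, 38.3 and 38.6 CPM in control and 44.8, 39.2 and 38 CPM in DMM.

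**Figure D4:**
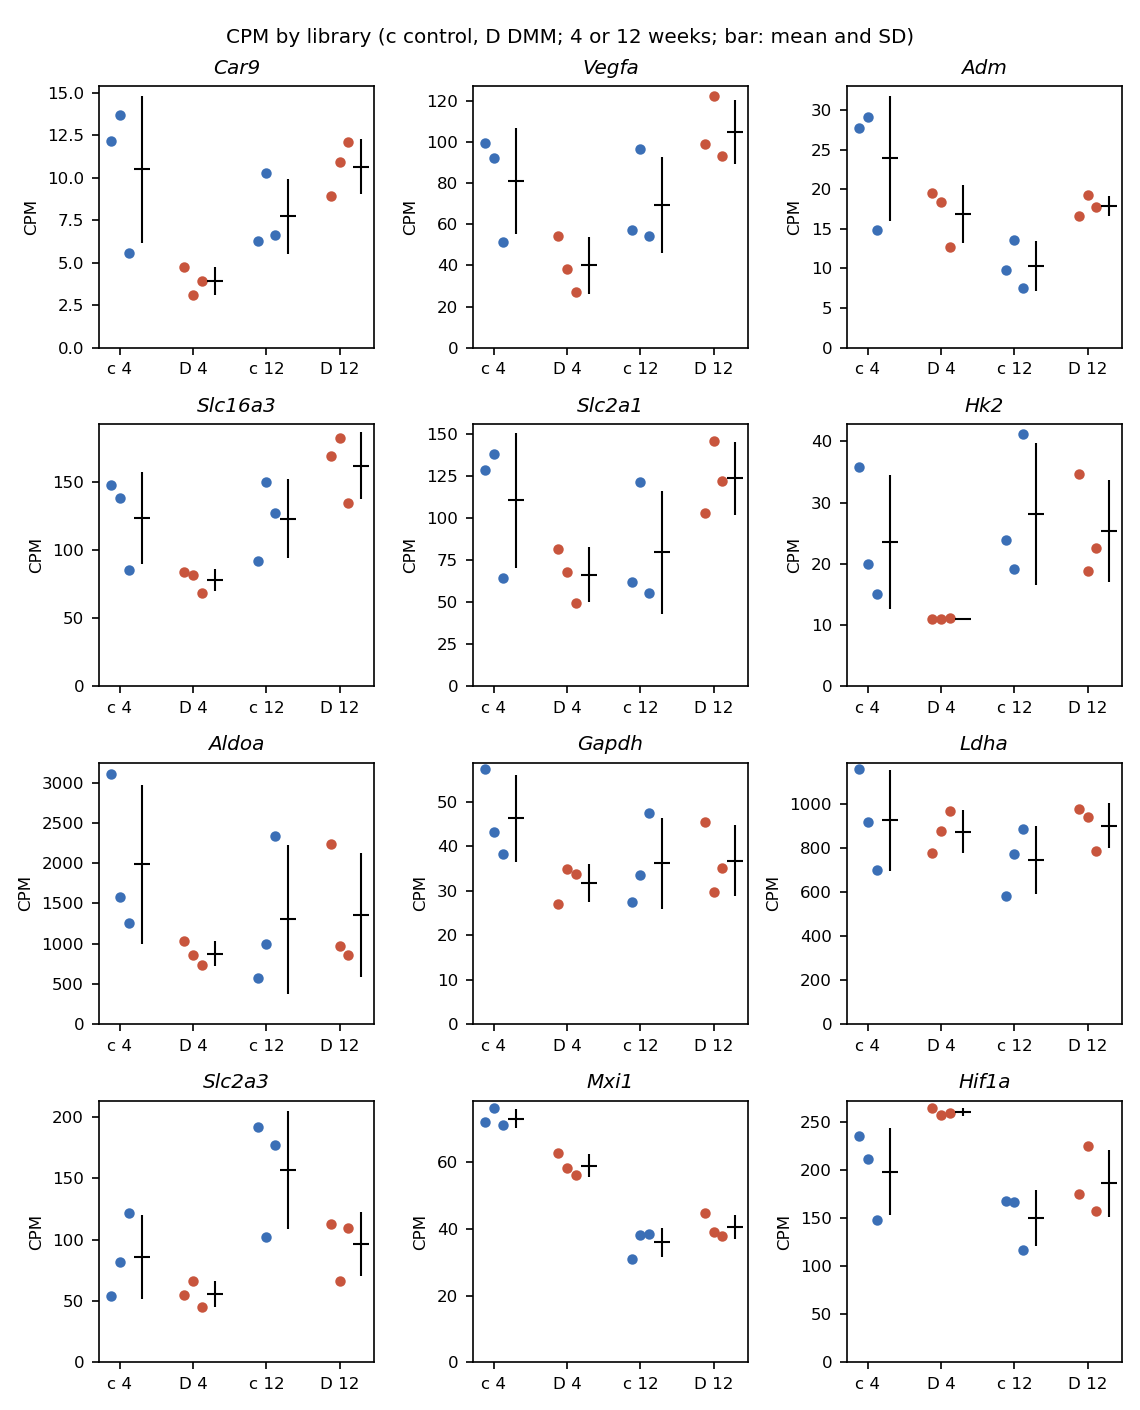
CPM of 12 members in each RNA library, as points for control (c, blue) and DMM (D, red) at 4 and 12 weeks, with a bar at the mean and its SD over 3 libraries and an axis from 0. Car9, Slc16a3, Hk2, Aldoa, Gapdh and Mxi1 had no DMM library above the lowest control at 4 weeks, and Hif1a had none below the highest control.

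Within DMM knees, 12 of the 33 members changed between 4 and 12 weeks, 11 of them higher and 1 lower at 12 weeks, where 23.8% of all 20951 transcripts passed, 12.1% higher and 11.7% lower. In 14 members every 12-week DMM library was above every 4-week one (21.5% of all transcripts) and in 3 every one was below (22.2% of all). The members that rose were Ddit4, Car9, Slc16a3, Vegfa, Hk2, Pfkl, Hk1, Slc2a1, Gpi1, Slc2a3 and Pkm, and Mxi1 fell. Ddit4 rose by 2.05 ± 0.28 on the log2 scale (edgeR adjusted p = 0.00376), Car9 by 1.45 ± 0.24 (adjusted p = 0.00585) and Vegfa by 1.40 ± 0.25 (adjusted p = 0.00706). Slc16a3 rose by 1.06 ± 0.19 and Hk2 by 1.21 ± 0.23, with adjusted p-values of 0.00676 and 0.00858. Pfkl, Hk1, Slc2a1, Slc2a3, Pkm and Gpi1 rose by 1.07, 0.96, 0.90, 0.79, 0.64 and 0.64, with adjusted p-values from 0.0168 to 0.0366. Mxi1 had a log2 change of -0.54 ± 0.16 (adjusted p = 0.0383). Leaving out 1 library at a time left 5 to 15 members called, and the share of all transcripts called moved with it. Without DMM replicate 2 at 4 weeks 5 members were called (9.48% of all transcripts), without DMM replicate 3 at 4 weeks 7 (9.58%), without DMM replicate 2 at 12 weeks 6 (12.9%), without DMM replicate 3 at 12 weeks 6 (9.58%) and without DMM replicate 1 at 4 weeks 15 (34.8%). Ddit4, Car9, Vegfa, Slc16a3 and Hk2 were called in all 6 of these fits, Pfkl in 4, Hk1 in 3, Slc2a1 and Slc2a3 in 2 each, and Gpi1, Pkm and Mxi1 in 1. The call of Mxi1, the 1 lower member, was also lost with no filter on low counts (adjusted p = 0.0611 in edgeR). In the same comparison 5 of the 20 chondrocyte markers and 3 of the 11 neutrophil and bone marrow markers were called higher. Called lower were 4 of the 6 adipocyte, 4 of the 8 endothelial and 3 of the 8 fibroblast and synovial markers, with 1 of these 8 called higher. Of 10 osteoblast and osteocyte markers 2 were called higher and 2 lower, of 7 osteoclast markers 1 higher and 1 lower, and of 11 erythroid markers 1 higher. All 20 muscle markers were higher at 12 weeks, with a median log2 change of 1.11 and none called. The part of these markers in the members' change was not tested.

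Within control knees 25 of the 33 members were lower at 12 than at 4 weeks, with none past the test, and the median log2 change was -0.37 against -0.02 over all 21222 transcripts. No member and no transcript (0%) passed the test in edgeR, although 4507 transcripts had an unadjusted p under 0.05, and DESeq2 called 2592 transcripts, 2 of them members that were lower (5.3% of its 25538 transcripts were called lower). At an unadjusted p under 0.05, 4 members were lower, where 10.5% of all transcripts were, and 1 was higher, where 10.8% were. Mxi1 had the smallest p, with all 3 of its 12-week control libraries far below the 4-week ones (-1.003 ± 0.14, adjusted p = 0.0687). Adm followed (-1.19 ± 0.33, adjusted p = 0.123), then Pdk1 (-0.44 ± 0.18), Pgk1 (-0.54 ± 0.22), Slc2a3, which was higher (0.88 ± 0.37), and Bnip3 (-0.98 ± 0.42). The 12-week controls lay below all 4-week controls in Pgk1, Pdk1, Adm and Mxi1 (12.9% of all transcripts) and above them in Hk1 and Gpi1 (14.4% of all). Without control replicate 3 at 4 weeks, whose sum over the 10 other HIF targets (706 CPM) was the lowest of the 4-week controls, 6 members were called, all lower, and 8.53% of 21502 transcripts were called lower. Among the 4-week controls that library also had the highest erythroid, neutrophil and bone marrow, and osteoclast sums (22654, 27906 and 3230 CPM). Its chondrocyte and muscle sums (17924 and 7608 CPM) were the lowest. All 20 muscle markers (median log2 change of -1.28) and 17 of the 20 chondrocyte markers (median of -0.76) were lower in the 12-week controls too, and all 11 neutrophil and bone marrow markers were higher (median of 1.002). No marker passed edgeR's test there, and their part in the members' values was not tested. The comparisons between times and between limbs share these libraries.

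In 4 lists of other genes of the pathway, no gene passed edgeR's test between limbs at either time. Over all transcripts, 7.57% were lower and 6.11% higher at an unadjusted p under 0.05 at 4 weeks, and 7.39% and 8.94% at 12 weeks. DESeq2 called 2.89% of all transcripts at 4 weeks and 3.41% at 12 weeks. Among the 12 tested genes of other glycolytic isozymes, 11 were lower in DMM at 4 weeks and 6 had an unadjusted p under 0.05. The lowest of these p-values was that of Pfkm, the muscle phosphofructokinase, with a log2 fold change of -2.48 ± 0.62. DESeq2 called 3 of the 12 at 4 weeks, all lower, and 0 at 12 weeks. At 12 weeks 8 of the 12 were lower, 1 gene had an unadjusted p under 0.05 in the higher and 2 in the lower direction, and the smallest p-values were those of Eno2, an enolase that hypoxia induces (0.89 ± 0.29), and Slc16a1, the lactate transporter MCT1 (-0.52 ± 0.16). Of 12 regulators of glycolytic flux, 9 were lower at 4 weeks and 7 had an unadjusted p under 0.05, with Pdk4 at -1.69 ± 0.35 as the smallest p. DESeq2 called 3 of these, all lower. At 12 weeks 8 of the 12 were lower, with an unadjusted p under 0.05 for 1, Pfkfb4 (-0.56 ± 0.23), and 0 called by DESeq2.

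Of 21 further HIF targets, 15 were lower at 4 weeks, with the smallest p for Gys1, glycogen synthase of muscle (-1.39 ± 0.31), and 13 were higher at 12 weeks, with the smallest p for Loxl2, a collagen cross-linking enzyme (1.58 ± 0.36). The smallest p in the lower direction at 12 weeks was that of Tfrc, the transferrin receptor (-0.93 ± 0.24). Of these 21 genes, 2 had an unadjusted p under 0.05 at 4 weeks, both lower, where 7.57% of all transcripts were lower. At 12 weeks 7 did, 5 of them higher, where 8.94% of all transcripts were higher and 7.39% lower. DESeq2 called 1 at 4 weeks and 3 at 12 weeks, where it called 2.89% and 3.41% of all transcripts. Of 7 partners and regulators of HIF, 4 of the 6 tested at 4 weeks were lower and 2 had an unadjusted p under 0.05, and 4 of 7 were higher at 12 weeks with none under 0.05, and DESeq2 called none at either time. The smallest p at both times was that of Cited2, which competes with HIF-1 alpha for its coactivator, with -0.83 ± 0.27 at 4 weeks and 0.39 ± 0.18 at 12 weeks. In the same fits all 20 muscle markers were lower in DMM at 4 weeks, 1 was called by edgeR and 15 by DESeq2, with Ckm at -2.97 ± 0.81 and Acta1 at -2.62 ± 0.88, and 8 of the 20 were higher at 12 weeks, none called by DESeq2. Of the 20 chondrocyte markers, 15 were lower in DMM at 4 weeks and all 20 were higher at 12 weeks, with median log2 fold changes of -0.62 and 0.50. No chondrocyte marker passed edgeR's test, 7 at 4 weeks and 2 at 12 weeks had an unadjusted p under 0.05, and DESeq2 called 1 at each time. The chondrocyte markers thus had medians of the same sign as the members at both times, and their part in the members' values was not tested. Of the remaining marker lists, the median log2 fold changes at 4 and 12 weeks were -0.15 and -0.37 for 11 erythroid, -0.03 and -0.49 for 11 neutrophil and bone marrow, 0.47 and 0.36 for 10 osteoblast and osteocyte, -0.02 and -0.03 for 7 osteoclast, 0.24 and -0.003 for 6 adipocyte (5 of them tested at 12 weeks), 0.04 and -0.21 for 8 endothelial and 1.11 and 1.59 for 8 fibroblast and synovial genes. None of these passed edgeR's test between limbs, and DESeq2 called 4 at 4 weeks and 10 at 12 weeks, among them 3 and 5 fibroblast and synovial genes that were higher.

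The oxBS data were summed over a promoter window, 1000 bases before to 500 after the start, and over the rest of each gene body. Promoters of 30 members at 4 weeks and 29 at 12 weeks had at least 3 cytosines covered by 10 or more reads in all 6 libraries, 1263 and 1068 cytosines in all, and 30 and 28 could be tested, since the 10 covered cytosines of Kdm3a held no methylated read at 12 weeks. Nearly all were unmethylated. In 28 promoters at each time every library was below 5% 5mC, Ndrg1 reached 6.79% in DMM replicate 2 at 4 weeks, and the promoter of Slc2a3 stood at 20.5, 16.4 and 10.8% in control and 10.9, 13.3 and 17.6% in DMM at 4 weeks, from 3 cytosines. At 12 weeks Slc2a3 stood at 12.4, 16.9 and 26.6% in control and 23.3, 18.5 and 19% in DMM. No member promoter passed the test between DMM and control, and 1 at each time had an unadjusted p under 0.05 (edgeR on methylated and unmethylated reads, Benjamini-Hochberg adjustment). No promoter of any gene passed at 4 weeks (0% of 14263, with 509 at an unadjusted p under 0.05, and none by limma), and 85 passed at 12 weeks (0.603% of 14094, with 1463 at an unadjusted p under 0.05, and none by limma). At 12 weeks the smallest member p was that of Pdk1, at 0.0640, 0 and 0.109% in control and 0.333, 0.558 and 0.323% in DMM, a difference of 0.347 points and an adjusted p of 0.197. The promoter of Slc16a3 stood at 3.85, 2.16 and 2.27% in control and 1.29, 1.84 and 2.96% in DMM at 12 weeks (53 cytosines, lower in DMM by the means, adjusted p = 0.504). In a shorter window, 250 bases before to 50 after the start, the direction at 12 weeks was the opposite. Slc16a3 stood there at 0.0640, 0 and 0% in control and 0.369, 0.441 and 0.921% in DMM (28 cytosines, adjusted p = 0.0331 in edgeR, with 0.0202% of 9919 short windows called). The same window stood at 0.908, 1.17 and 0.771% in control and 0.907, 0.382 and 0.885% in DMM at 4 weeks, and was not called. All of these values lie near the floor.

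Gene bodies spanned the whole range, from under 1% in Hif1a, Gapdh and Pgam1 to over 80% in Bnip3. DMM was lower than control in 24 of the 28 member gene bodies at 4 weeks and in 24 of 27 at 12 weeks, as it was in 67.1% and 71.5% of all gene bodies. Every DMM library was below every control in 5 members at 4 weeks (5.3% of all gene bodies) and in 7 at 12 weeks (Egln1, Slc2a1, Tpi1, Slc16a3, P4ha1, P4ha2 and Adm), where 18% of all gene bodies were. None of the 14472 gene bodies passed at 4 weeks (0%, with 429 at an unadjusted p under 0.05 and none by limma), and 113 did at 12 weeks (0.792%), of which 1 was a member, Slc16a3. With the replicate number as a block, 823 gene bodies passed at 4 weeks (5.69%), 5 of them members, all lower in DMM. The labels do not say whether that number marks the same mice in both limbs. Slc16a3 fell from 41.3, 46.8 and 41.2% in control to 32.2, 27.8 and 28.7% in DMM at 12 weeks (12 cytosines, adjusted p = 0.0394). At 4 weeks it was at 41.9, 28.8 and 31.9% in control and 29.8, 21.4 and 28% in DMM (adjusted p = 0.901). The call of Slc16a3 at 12 weeks was lost by limma's test and with the replicate number as a block. It was also lost without any of control replicates 1, 2 and 3 and DMM replicates 2 and 3. The call was kept at a coverage minimum of 20 reads and without DMM replicate 1.

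Within Slc16a3, every DMM library was below every control at 9 of the 12 cytosines at 12 weeks and at 2 of the 12 at 4 weeks. Slc16a3 was viewed by cytosine because its gene body was called, and the share of all covered cytosines without overlap is not given here. The 12 cytosines comprise 1 in an intron near the start, 4 in or next to exon 4 that were mostly methylated, and 7 in the last exon, exon 6, between chr11:120958143 and chr11:120958263 of GRCm38, past the coding sequence. At 12 weeks these 7 ranged from 12.3% to 37.1% in the control and from 4.76% to 16.7% in the DMM libraries. At each of the 7 every DMM library was below every control. Each cytosine had 357 to 368 reads summed over all 6 libraries. These cytosines lie close together and can share reads, so they are not 7 separate observations. The other 2 without overlap at 12 weeks were in or next to exon 4, at chr11:120955929 (83.3% to 86.5% in DMM below 87.5% to 89.7% in control) and chr11:120955951 (73.1% to 81.6% in DMM below 87.5% to 91.5% in control). At 4 weeks the 7 of exon 6 ranged from 5.17% to 34.3% in control and from 0% to 17.2% in DMM, and all 7 overlapped. The 2 cytosines without overlap at 4 weeks were both in exon 4, at chr11:120955837 (55.6% to 73.6% in DMM below 80% to 87.4% in control) and chr11:120955868 (44.4% to 68.5% in DMM below 71% to 77.3% in control). Tpi1 was next among the gene bodies, at 42.6, 57.6 and 54.7% in control and 35.8, 41.9 and 36.5% in DMM at 12 weeks (13 cytosines, adjusted p = 0.118). In Tpi1 every DMM library was below every control at 6 of the 13 cytosines at 12 weeks and at 1 of 13 at 4 weeks. The share of all covered cytosines is not given for Tpi1 either, and its nearby cytosines can share reads. The 12-week counts per cytosine of both genes come from the same reads that singled these genes out, so they are not separate support. The RNA of Slc16a3 was not called between limbs at 12 weeks, and RNA and DNA libraries were from separate mice, so no pairing of both readouts by library was made.

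**Figure D5:**
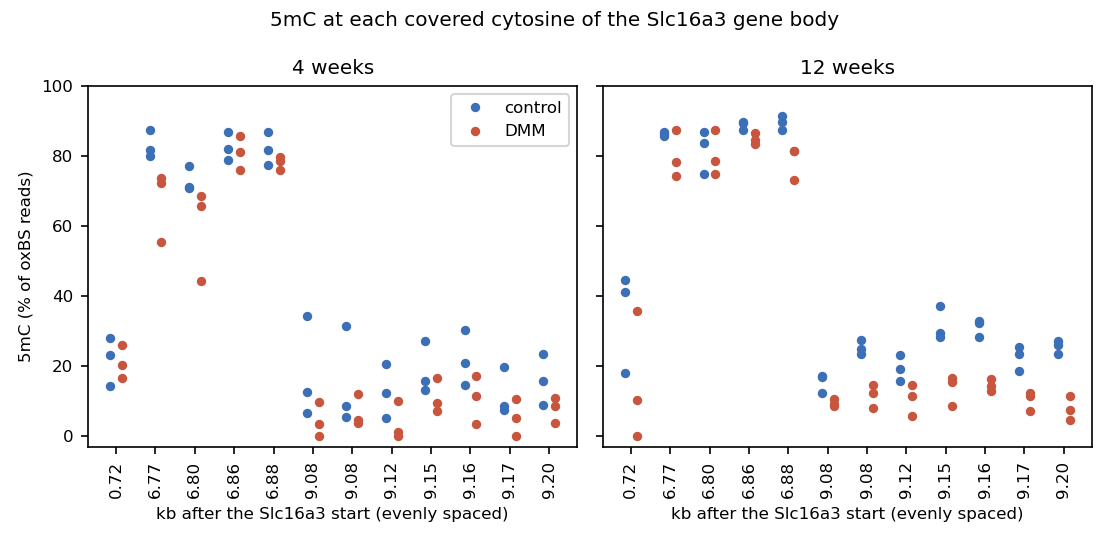
5mC percentage at each of the 12 covered cytosines of the Slc16a3 gene body at 4 weeks (left) and 12 weeks (right), ordered by distance in kb after the transcript start and evenly spaced, with a point for each control (blue) and DMM (red) oxBS library. At 12 weeks the 7 cytosines beyond 9 kb and 2 of the 4 in or next to exon 4 had all DMM points below all control points, and at 4 weeks the other 2 of these 4 did.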

How the data were processed

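RNA was measured in 12 libraries and 5mC in 12 oxBS libraries. Another 12 bisulfite libraries were not used here. The deposited RNA values were raw read counts per RefSeq transcript, made by the authors with STAR and featureCounts on mm10 from single reads trimmed with FLEXBAR. The labels describe a poly(A) TruSeq preparation and the methods SMART-Seq v4 with Nextera XT, so the preparation is unsure, and the strand setting is not given in the sources used here. Transcript rows of 1 gene share reads. The deposited oxBS tables held, per cytosine with at least 10 reads, the percent methylation and read coverage. The authors digested DNA with MspI, trimmed reads with CUTADAPT and used an in-house pipeline, and the submitters' processing notes name Bismark and CASAVA 2.17. Of 56689 positions on chromosome 19, 99.98% were CpG cytosines of GRCm38.p6.

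Samples were grouped by limb and week from the labels. The p-values measure the spread between pooled libraries of 3 knees, part of which may be technical. Counts were fitted over all transcripts with edgeR 4.0.16 in R 4.3.3 (TMM factors, filterByExpr, robust quasi-likelihood test) for each week, the interaction, and 12 against 4 weeks within each limb. Methylated and unmethylated oxBS reads were summed per window over cytosines covered by at least 10 reads in all 6 libraries of a week (1444973 at 4 weeks and 1273121 at 12 weeks) and tested with edgeR's methylation design. Adjusted p-values (Benjamini-Hochberg, over all features) under 0.05 were called. Standard errors were derived from the quasi-likelihood F statistic. Alternatives used DESeq2 1.42.0, limma 3.58.1, other filters, a replicate block, a muscle score and each library left out. Both tests were also run on simulated data, with outcomes not reported here. The changes planted in the RNA counts were larger than any member's fold change between limbs. Those runs therefore do not show whether changes as small as the members' would be found. Replicates of a group differed by far more than counting noise.

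The members, the pathway and marker lists, and the genes named were chosen with earlier results of these data known. Every member was named. Values in every library were given for Hif1a, Slc2a1, Gapdh, Ldha and Vegfa, and in each RNA comparison for members past the threshold or, where fewer than 6 passed, for the 6 with the smallest unadjusted p, and for Kdm3a and single libraries of Egln3, Car12 and Ndrg1, which were added after their values were seen. Of each pathway list, genes with the smallest unadjusted p were named, and of muscle also Ckm and Acta1. Promoter sequences came from the RefSeq promoter table of GRCm38.p6.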

Additional observations from a re-analysis of the deposited data

How the results depend on the processing

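Of 100 recomputed counts of members called, 77 stayed within 1.5 times the main count, and of 891 recomputed fold changes of single members at 4 and 12 weeks, 40 changed sign. The main count was 0 except within DMM knees (12) and for gene bodies at 12 weeks (1). At 0 the rule holds only for a count of 0 again. The 77 are therefore mostly counts that were 0 both times, and do not measure how stable the calls were. The causes were not tested.

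Between limbs at 4 weeks the count of 0 became 3 with DESeq2 (2.89% of all transcripts called) and ranged from 0 to 2 as 1 library was left out (2, Car9 and Ddit4, without control replicate 3, with 0.553% of all). At 12 weeks the count of 0 became 1 with DESeq2 (3.41% of all) and 7 with the replicate block (6 higher and 1 lower, 3.49% of all), and ranged from 0 to 8 as 1 library was left out (8 without control replicate 2, 4.04% of all). The labels do not say whether a replicate number marks the same mice in both limbs. Deviations of control and DMM RNA libraries with the same number had correlations of 0.36, -0.32 and 0.08 at 4 weeks and -0.54, 0.27 and -0.26 at 12 weeks. These values do not settle whether the numbers are pairs, and the unpaired fit was kept. The block left the count at 0 at 4 weeks and in the interaction. The count within control knees, 0, became 2 with DESeq2 (10.1% of all) and ranged from 0 to 6 (6 without 4-week replicate 3, 18.3% of all), and that within DMM knees, 12, ranged from 5 to 15. Other size factors and no low-count filter kept each RNA count within 1.5 times.

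For 5mC, the promoter count at 4 weeks, 0, became 1 with the replicate block (1.82% of all) and ranged from 0 to 1 as 1 library was left out (Aldoa in both, without control replicate 2, 0.456% of all), and at 12 weeks it became 1 (Slc16a3, higher in DMM, against lower in the main window, 0.0202% of all) in the window of 250 bases before to 50 after the start. The gene body count at 4 weeks, 0, became 5 with the replicate block (Egln3, Aldoa, Tpi1, Slc16a3 and P4ha1, all lower, with 5.69% of all gene bodies called), and the count of 1 at 12 weeks became 0 with the block and 0 by limma and ranged from 0 to 2 (2 without DMM replicate 1, 0.687% of all). In gene bodies at 4 weeks each oxBS library correlated best with its own number in the other limb, with correlations of 0.25, 0.19 and 0.014, a hint from the data and not from the design. At 12 weeks these were -0.12, -0.11 and 0.092, and in promoters they ran from -0.020 to 0.11 at 4 weeks and from 0.001 to 0.031 at 12 weeks, so the numbers were not taken as pairs.

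With the skeletal muscle score in the fit, 14 members changed sign at 4 weeks, with log2 fold changes of 0.14 for Epas1, 0.45 for Egln1, 0.049 for Slc2a1, 0.052 for Hk1, 0.29 for Pfkl, 0.047 for Eno1, 0.13 for Pkm, 0.11 for Ldha, 0.10 for Pdk1, 0.25 for Ndrg1, 0.19 for Bnip3, 0.38 for P4ha2, 0.21 for Adm and 0.049 for Ddit4, and at 12 weeks Aldoa and Gapdh did (-0.071 and -0.038). Because the score did not overlap between limbs at 4 weeks, that fit cannot separate score from limb there. As 1 library was left out, log2 fold changes that crossed 0 ran at 4 weeks for Pfkp from -0.22 to 0.20, Eno1 from -0.30 to 0.040, Ldha from -0.27 to 0.099, Car12 from -1.86 to 1.19, Bnip3 from -0.61 to 0.090, P4ha1 from -0.006 to 0.39 and Kdm3a from -0.14 to 0.13, and at 12 weeks for Hk1 from -0.032 to 0.047, Hk2 from -0.44 to 0.23, Aldoa from -0.51 to 0.80, Gapdh from -0.15 to 0.26 and Car12 from -0.44 to 0.51. Car12 at 12 weeks was 0.11 with the replicate block. Without both 12-week libraries highest in muscle markers, an alternative chosen after seeing the data, Epas1 at 12 weeks was -0.002.

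With 3 pooled libraries a group, each fold change at 4 weeks carried a standard error of 0.16 to 1.01 on the log2 scale, and at 12 weeks of 0.11 to 0.58. Differences of several standard errors did not pass the test either, such as Car9 at 4 weeks (-1.43 ± 0.37) and Adm at 12 weeks (0.80 ± 0.22). A member that was not called may therefore still differ by more than its standard error. The oxBS median coverage ran from 22 to 102 reads a cytosine among libraries.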
